A study of Mus musculus with 21 samples.

Results

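The S100 proteins and annexins described here are 10 genes, chosen by name from the 23420 genes of the count table, and all 10 were present: S100a4, S100a6, S100a10, S100a11, Anxa1, Anxa2, Anxa3, Anxa4, Anxa5 and Lgals3, which encodes galectin-3. The study sequenced RNA of inflammatory monocytes (IMs), sorted from mice with or without lung squamous tumors, in 21 libraries. Tumor-infiltrating IMs (TIMs) came from primary lung tumors and from lymph node metastases of FVB mice that received 500000 KAL-LN2-E1 (LN2E1) cells in the lung (5 libraries each), and from the lungs of DBA2 mice that received 300000 LN4K1 cells by vein (5 libraries). Control IMs came from the bone marrow (BM IMs) of naïve, healthy FVB mice and DBA2 mice (3 libraries each). Cells were enriched with a monocyte kit and sorted as CD45+ CD11b+ Ly6C-high Ly6G- cells, and the study's gate also left out SiglecF+ cells. The labels name no engineered allele and give no age. Each tumor model was 1 cell line in 1 strain, so strain, line, injection route and organ cannot be told apart between models. BM IMs came from marrow and TIMs from tumors, so tumor and tissue cannot be told apart either. The study's methods call the libraries of a group technical replicates, and nothing in the labels says that they came from separate animals, so p-values measure the spread between these samples and not that between animals.

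S100 proteins are small calcium sensors that bind through EF-hands and usually work as dimers. Annexins bind acidic phospholipids of membranes when calcium rises, and S100 dimers can link annexins into complexes that bridge membranes, the best known being annexin A2 with S100A10. In monocytes these proteins take part in migration, membrane repair, plasmin generation at the cell surface and the damping of inflammation, and galectin-3, a secreted lectin that binds galactose-bearing glycans, is a classic product of monocytes and macrophages.

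Locations are from the GENCODE vM21 annotation of GRCm38 (mm10), which is also the build of the counts, and all 10 genes are protein coding. S100a4 (chr3:90603771-90606045) and S100a6 (chr3:90612882-90624181), both on the plus strand, lie in the S100 cluster of chromosome 3, as do S100a11 (chr3:93520488-93526287) and S100a10 (chr3:93555080-93564643), also on the plus strand. Anxa5 (chr3:36448923-36475894, minus strand) is on the same chromosome. The other annexin genes are spread out: Anxa1 at chr19:20373428-20390944 (minus), Anxa2 at chr9:69453620-69491795 (plus), Anxa3 at chr5:96793339-96845966 (plus) and Anxa4 at chr6:86736840-86793584 (minus). Lgals3 lies at chr14:47367751-47386160 (plus). Exons of S100a4 overlap the annotated gene Gm42674 and those of Anxa3 overlap Gm42603 on the same strand, whereas those of Anxa2 overlap Gm16144 and those of Anxa4 overlap Gm44036 on the opposite strand. Libraries were not stranded, so strand cannot separate reads in the overlaps of Anxa2 and Anxa4. For S100a4 and Anxa3, whose overlaps are on the same strand, strand would not separate them in any case. The counting annotation is not given, so whether the overlapping genes were counted is not known. Values of these 4 genes carry that uncertainty.

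RefSeq promoter entries (GRCm38.p6) matched 8 of the 10 genes. The bases before the start site are shown 5′ to 3′ on the gene's strand for S100a4 and S100a6, neighbours whose levels rose and fell together between libraries of a group, for Lgals3, whose change differed between models like that of these S100 genes, and for Anxa4, which rose in TIMs of every tumor site. Bases inside an annotated exon were left out, and the RefSeq start of Lgals3 lies inside the longer GENCODE gene. Capitals mark matches, on either strand, to the core promoter motif TATAAA, the AP-1 motif TGANTCA, the Sp1 motif GGGCGG or the NF-Y motif CCAAT.
S100a4, chr3:90603520-90603769, plus strand: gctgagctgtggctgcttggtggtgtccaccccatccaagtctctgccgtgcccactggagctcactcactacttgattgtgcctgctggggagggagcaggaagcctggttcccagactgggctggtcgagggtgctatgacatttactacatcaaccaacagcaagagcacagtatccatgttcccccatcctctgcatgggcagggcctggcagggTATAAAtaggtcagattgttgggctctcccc
S100a6, chr3:90612644-90612881, plus strand: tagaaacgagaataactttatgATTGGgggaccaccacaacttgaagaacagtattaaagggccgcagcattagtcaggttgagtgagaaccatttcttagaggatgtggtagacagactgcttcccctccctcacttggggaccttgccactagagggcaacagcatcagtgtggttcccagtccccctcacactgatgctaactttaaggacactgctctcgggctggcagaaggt
Lgals3, chr14:47373610-47373812, plus strand: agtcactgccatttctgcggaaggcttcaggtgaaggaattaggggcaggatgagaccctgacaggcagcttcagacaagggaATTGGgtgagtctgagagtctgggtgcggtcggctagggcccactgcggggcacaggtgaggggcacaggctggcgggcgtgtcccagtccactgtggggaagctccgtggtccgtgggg
Anxa4, chr6:86793585-86793834, minus strand: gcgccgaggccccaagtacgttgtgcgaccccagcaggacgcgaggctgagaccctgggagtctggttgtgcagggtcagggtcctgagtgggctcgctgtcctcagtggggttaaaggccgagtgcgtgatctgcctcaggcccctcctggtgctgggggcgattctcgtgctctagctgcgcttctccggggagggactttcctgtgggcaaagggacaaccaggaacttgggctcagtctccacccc
In the 250 bases before the start, TATAAA was found in 3 of the 8 genes (S100a4, Anxa1 and Anxa2) and in 12.4% of all 32851 promoter entries. TGANTCA was found in 2 (S100a11 and Anxa2) and in 6.75% of all entries. GGGCGG was found in 3 (S100a11, Anxa2 and Lgals3) against 32.7%, and CCAAT in 2 (S100a6 and Lgals3) against 33.8%. The S100a4 match begins 31 bases before the start, that of S100a6 begins 228 bases before it, and the GGGCGG match of Lgals3 lies in exonic bases that are not shown. Anxa4 and Anxa5 held none of these letters in this window, and S100a4 and S100a6 shared none of them.

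Library totals ranged from 80772922 to 101043568 counts, and levels are given as CPM, the counts of a gene for every 1000000 counts of the library after scaling by the trimmed mean of M-values (TMM). Defining genes of sorted monocytes were present in every library: the 6 genes Ptprc, Itgam, Ly6c2, Ly6c1, Ccr2 and Csf1r summed to between 5452 and 9817 CPM. This sum holds opposite moves. Medians of Ly6c2 were 3035 (FVB) and 2512 (DBA2) CPM in BM IMs and 1267 (primary tumor), 1466 (lymph node) and 1525 (LN4K1 lung) in TIMs. Those of Csf1r, in the same order, were 750, 1062, 2580, 3257 and 2001. Lymph node TIM replicate 1 (mean r of 0.889 with the other libraries of its group) and LN4K1 lung TIM replicate 3 (0.907) stood apart, while the mean r of every other library was at least 0.945. Markers of other cells also moved with the groups. Summed over 8 neutrophil genes, the level was 3466 to 4609 CPM in FVB BM IMs, 1293 to 1821 in DBA2 BM IMs, 576 to 1563 in primary tumor TIMs, 436 to 578 in lymph node TIMs and 607 to 1314 in LN4K1 lung TIMs. The 5 eosinophil genes summed to 469 to 1255 CPM in BM IMs and to 15.2 to 82.8 in TIMs, while 5 dendritic cell genes summed to 190 to 247 CPM in BM IMs and to 1056 to 5195 in TIMs. Most of this last sum was H2-Ab1 (106 to 155 CPM in BM IMs, 918 to 5148 in TIMs). Flt3 rose from medians of 7.23 (FVB) and 14.7 (DBA2) CPM to 36.9 (primary tumor), 52.5 (lymph node) and 49.4 (LN4K1 lung). Cd209a had medians of 76.0 and 87.0 CPM in BM IMs and of 58.8, 45.8 and 82.8 in these TIMs. Zbtb46 and Xcr1 stayed at 4.63 CPM or less. The 8 genes of squamous and other epithelium summed to at most 2.79 CPM in BM IMs, where 4 (FVB) and 5 (DBA2) of them were at 3 counts or fewer in every library, and to between 1.27 and 140 in TIMs, the lowest value being that of LN4K1 lung TIM replicate 3. The 5 fibroblast genes summed to at most 0.359 CPM in BM IMs, to 361 to 1101 in primary tumor TIMs and to at most 87.1 in the other TIMs.

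All 10 genes were expressed in every library, with counts from 2425 (Anxa3) to 279239 (Lgals3). Lgals3 ranked between 18 and 81 among the 23420 genes of a library and Anxa2 between 28 and 84, so these were among the most abundant transcripts of both BM IMs and TIMs. Anxa3 ranked between 940 and 5089 and Anxa4 between 732 and 1475 of a library. Per length, as RPKM (CPM for every 1000 bases of the union of annotated exons), Lgals3 averaged 1493 ± 229 (SD, n = 3) in FVB BM IMs and S100a11 933 ± 156, whereas Anxa4 averaged 33.2 ± 3.27 and Anxa3 32.0 ± 3.1. S100a11, Lgals3 and S100a4 had the highest mean RPKM in all 3 TIM groups, with S100a11 first in primary tumors (1028 ± 132, n = 5), Lgals3 in lymph nodes (1077 ± 245, n = 5) and S100a4 in LN4K1 lungs (1070 ± 321, n = 5). Anxa3 and Anxa4 had the lowest mean RPKM in each of the 5 groups, Anxa4 being the lower in DBA2 BM IMs and Anxa3 in the other 4. Between the highest and the lowest library, the CPM of a gene differed from 1.49-fold for Anxa2 to 5.76-fold for Anxa3. When the groups were ordered by mean CPM, each neighbouring pair of groups overlapped for S100a4, S100a10, S100a11, Anxa2, Anxa5 and Lgals3. Neighbours without overlap were found for S100a6 (LN4K1 lung TIMs above FVB BM IMs, and DBA2 BM IMs above primary tumor TIMs), Anxa1 (primary tumor TIMs above DBA2 BM IMs), Anxa3 (DBA2 above FVB BM IMs, and LN4K1 lung above primary tumor TIMs) and Anxa4 (LN4K1 lung TIMs above FVB BM IMs, and FVB above DBA2 BM IMs).

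**Figure D1:**
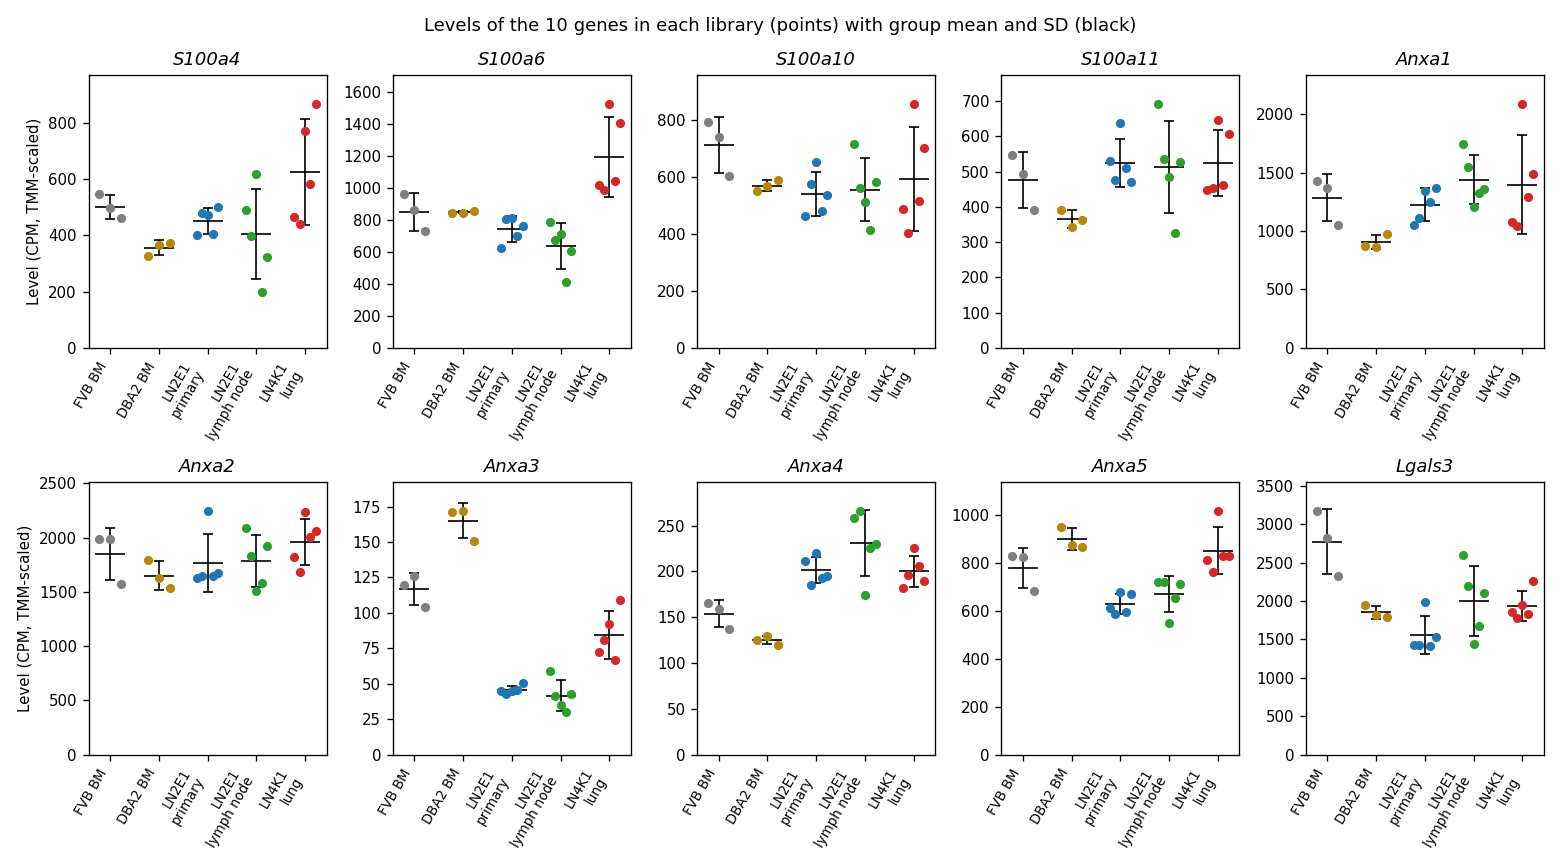
Levels of the 10 genes in CPM (vertical axes from 0, TMM-scaled) in the 5 groups, 1 point per library, with the group mean and SD in black. Anxa3 lay between 29.9 and 58.7 CPM in LN2E1 TIMs and between 104 and 126 in FVB BM IMs, and Anxa4 lay lower in BM IMs (120 to 166) than in TIMs (174 to 266).

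The comparison of TIMs with BM IMs of the same strain asked which genes monocytes express differently in tumors. Each comparison was tested by the quasi-likelihood test of edgeR, and p-values were adjusted over all genes tested by the Benjamini-Hochberg method. A gene was called changed at an adjusted p under 0.05 and a DEG, by the study's thresholds, at an adjusted p under 0.0001 with an absolute log2 fold change above 1. All 10 genes passed the filter on low counts in each comparison. In primary tumor TIMs 5 of the 10 changed (1 higher, 4 lower), against 61.9% of all genes tested (33.3% higher, 28.6% lower). In lymph node TIMs 2 changed (1 higher, 1 lower), against 37.4% (20.2% higher, 17.2% lower). In LN4K1 lung TIMs 3 changed (2 higher, 1 lower), against 24.9% (13.9% higher, 11% lower). With TMM scaling the members' share was below that of all genes in both LN2E1 comparisons and near it in LN4K1 lungs. With 10 members these gaps amount to few genes, and they were not tested. Without lymph node TIM replicate 1, which stood apart, 4 changed, S100a10 and Lgals3 being the added genes. Without LN4K1 lung TIM replicate 3, which also stood apart, 6 changed, the added genes being S100a11 (log2 fold change 0.35), Anxa1 (0.36) and Anxa5 (-0.23). With raw library totals in place of TMM, a scaling that moved the median of all genes by -0.17 (primary tumor), -0.29 (lymph node) and -0.22 (LN4K1 lung) on the log2 scale, the members changed were 1 higher and 6 lower, 0 higher and 6 lower, and 1 higher and 2 lower. Of all genes tested, 62.8%, 41.6% and 29.0% changed with raw library totals, so the members' share was then above that of all genes in both LN2E1 comparisons. With TMM scaling the median log2 fold change of the members was -0.19 in primary tumors (0.08 over all genes tested), -0.26 in lymph nodes (-0.04) and 0.29 in LN4K1 lungs (0.03). The primary tumor and lymph node comparisons share the 3 FVB BM IM libraries. The 3 comparisons have Anxa3 and Anxa4 in common, the first lower and the second higher in each.

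**Figure D2:**
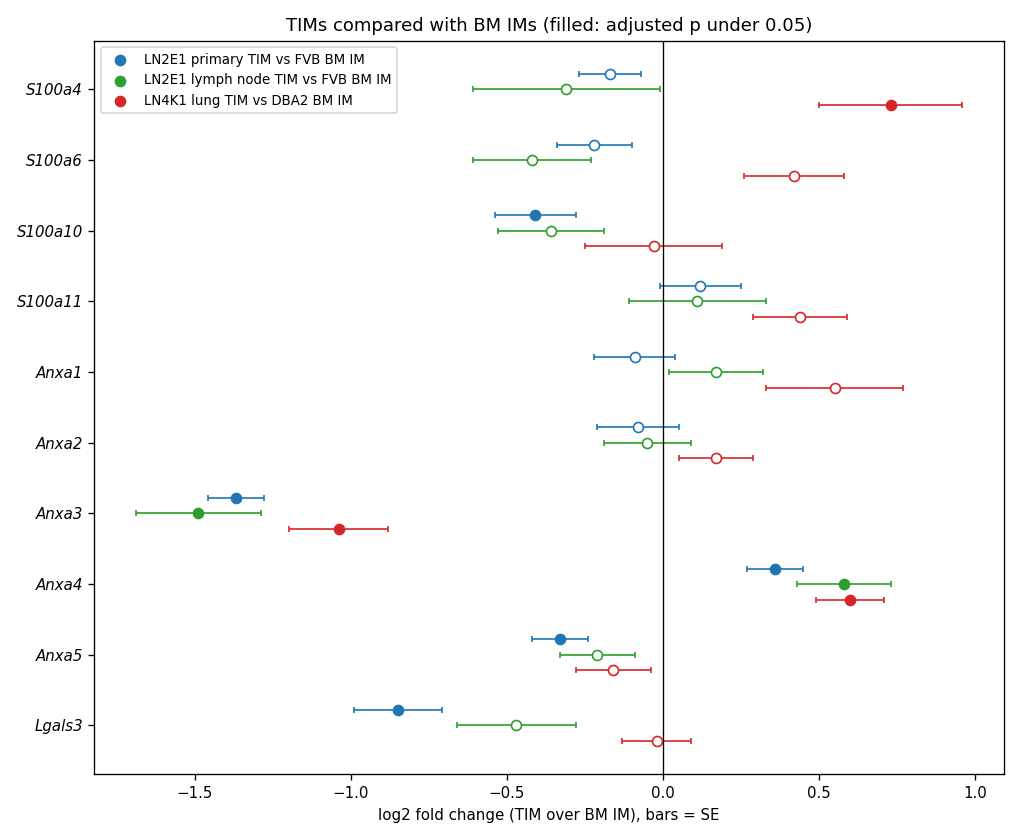
The log2 fold change (horizontal axis, TIM over BM IM, with SE) of the 10 genes in LN2E1 primary tumor, LN2E1 lymph node and LN4K1 lung TIMs. Filled points passed an adjusted p under 0.05, and Anxa3 lay between -1.49 and -1.04 and Anxa4 between 0.36 and 0.60 in the 3 comparisons.

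Anxa3 encodes an annexin best known from neutrophil granules. It stood at 120, 126 and 104 CPM in FVB BM IMs, at 171, 172 and 151 in DBA2 BM IMs, at 45.0, 42.8, 44.6, 45.4 and 50.6 in primary tumor TIMs, at 58.7, 41.5, 35.0, 29.9 and 42.5 in lymph node TIMs and at 72.7, 80.9, 92.2, 66.5 and 109 in LN4K1 lung TIMs. Each TIM library lay below every BM IM library of its strain. The level was 2.59-fold lower in primary tumor TIMs (log2 fold change -1.37, SE 0.09, edgeR adjusted p = 1.68e-06), which made Anxa3 the only DEG among the members there, against 12.9% DEGs over all genes. It was 2.81-fold lower in lymph node TIMs (-1.49, SE 0.20, edgeR adjusted p = 0.000331) and 2.06-fold lower in LN4K1 lung TIMs (-1.04, SE 0.16, edgeR adjusted p = 0.00122). An exact two-sided permutation test of the mean log2 CPM gave p = 0.0179 for each, the smallest that 5 libraries against 3 allow. All 3 calls held when any single library was left out. In lymph node and LN4K1 lung TIMs it missed the p threshold of a DEG by edgeR with each comparison fitted on its own groups, by which 5.71% and 2.97% of all genes tested were DEGs. In lymph node TIMs it was a DEG by edgeR with all 5 groups in 1 fit and with at least 10 counts required in every library. DESeq2 made it a DEG in both, among 2419 DEGs of 14111 genes in lymph node TIMs and 1600 of 15051 in LN4K1 lung TIMs.

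Most granulocyte markers, but not all, moved in the same direction as Anxa3 from BM IMs to TIMs. Of the 8 neutrophil markers (S100a8, S100a9, Retnlg, Csf3r, Cxcr2, Ngp, Camp and Ltf), 5 were lower and 2 higher in primary tumor TIMs, 6 lower and 2 higher in lymph node TIMs, and 5 lower and 0 higher in LN4K1 lung TIMs, by edgeR at an adjusted p under 0.05. Of the 5 eosinophil markers in the table, 4, 5 and 4 were lower in the same comparisons. The neutrophil markers called higher were Csf3r and Cxcr2. Csf3r had medians of 268 CPM in FVB BM IMs, 547 in primary tumor and 430 in lymph node TIMs. Those of Cxcr2 were 1.9, 16.1 and 8.57. Camp was at 3 counts or fewer in every lymph node library, and so were the eosinophil genes Prg2 and Il5ra. Between BM IMs of the 2 strains the order differed: DBA2 libraries held more Anxa3 and less of the neutrophil list than FVB libraries. Among primary tumor TIMs, replicate 4 had the highest neutrophil sum (1563 CPM) and 45.4 CPM of Anxa3, within the 42.8 to 50.6 CPM of its group. The part of granulocyte RNA in the lower Anxa3 of TIMs was not tested, and in these bulk samples fewer cells of a type and less RNA per cell cannot be told apart.

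Anxa4 encodes a membrane-binding annexin known from secretory epithelia. It stood at 166, 159 and 137 CPM in FVB BM IMs, at 125, 129 and 120 in DBA2 BM IMs, at 211, 185, 220, 193 and 195 in primary tumor TIMs, at 258, 266, 174, 225 and 230 in lymph node TIMs and at 182, 196, 226, 206 and 190 in LN4K1 lung TIMs. Each TIM library lay above all 6 BM IM libraries. The rise was 1.29-fold in primary tumor TIMs (log2 fold change 0.36, SE 0.09, edgeR adjusted p = 0.00757), 1.5-fold in lymph node TIMs (0.58, SE 0.15, edgeR adjusted p = 0.013) and 1.52-fold in LN4K1 lung TIMs (0.60, SE 0.11, edgeR adjusted p = 0.00345). The exact permutation p was 0.0179 in each. Leaving out 1 library kept the call in 8, 7 and 8 of 8 fits. The lymph node call was lost without FVB BM IM replicate 3 (0.51, edgeR adjusted p = 0.051) and with raw library totals (0.30, edgeR adjusted p = 0.111). Dendritic cell markers rose beside it, 4, 3 and 2 of 5 in the 3 comparisons, epithelial markers rose in 4 of 4, 2 of 3 and 3 of 5 tested, and their part in the rise of Anxa4 was not tested. LN4K1 lung TIM replicate 3, which stood apart over all genes, had the highest Anxa4 of its group, at 226 CPM. Its epithelial markers summed to 1.27 CPM, the lowest of the group. Its dendritic cell markers summed to 1710 CPM, in a group range of 1060 to 2280. This is 1 library, and how these values go together was not tested.

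Lgals3 fell in primary tumor TIMs. It stood at 3173, 2822 and 2326 CPM in FVB BM IMs, at 1954, 1813 and 1790 in DBA2 BM IMs, at 1429, 1425, 1993, 1416 and 1527 in primary tumor TIMs, at 2603, 2192, 1445, 1670 and 2100 in lymph node TIMs and at 1851, 1784, 1948, 1833 and 2257 in LN4K1 lung TIMs. Primary tumor TIMs lay below all FVB BM IM libraries, lymph node TIMs overlapped them, and LN4K1 lung TIMs overlapped DBA2 BM IMs. The fall was 1.8-fold in primary tumor TIMs (log2 fold change -0.85, SE 0.14, edgeR adjusted p = 0.000587, exact permutation p = 0.0179), and it held when any library was left out. In lymph node TIMs the log2 fold change was -0.47 (SE 0.19, edgeR adjusted p = 0.0779), and in LN4K1 lung TIMs it was -0.02 (SE 0.11, edgeR adjusted p = 0.939). Lgals3 was called lower in lymph node TIMs with raw library totals. Fibroblast markers, 5 of 5, and lung epithelium markers, 4 of 4, rose in primary tumor TIMs. These rises were not particular to that group. Fibroblast markers also rose in lymph node TIMs (4 of 4 tested) and LN4K1 lung TIMs (2 of 4). Lung epithelium markers rose in LN4K1 lung TIMs (3 of 4) but not in lymph node TIMs (0 of 2 higher, 1 lower). The part of these markers in the fall of Lgals3 was not tested.

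S100a4, known as metastasin and a binder of nonmuscle myosin, rose in LN4K1 lung TIMs. It stood at 547, 496 and 462 CPM in FVB BM IMs, at 325, 367 and 374 in DBA2 BM IMs, at 400, 480, 471, 406 and 501 in primary tumor TIMs, at 490, 397, 617, 197 and 323 in lymph node TIMs and at 465, 441, 770, 582 and 866 in LN4K1 lung TIMs. LN4K1 lung TIMs lay above all DBA2 BM IM libraries, with replicates 3 and 5 the highest, whereas LN2E1 TIMs overlapped FVB BM IMs and lymph node replicate 4 was the lowest of all libraries. The rise in LN4K1 lung TIMs was 1.66-fold (log2 fold change 0.73, SE 0.23, edgeR adjusted p = 0.0411, exact permutation p = 0.0357). This call was fragile, since it remained in 3 of 8 fits with 1 library left out (0.60 to 0.85): it was lost when a library of DBA2 BM IMs (any of the 3) or LN4K1 lung replicate 4 or 5 was left out, and kept without replicate 3 (0.65, edgeR adjusted p = 0.0354). With raw library totals it was lost (0.51, edgeR adjusted p = 0.115). In LN2E1 TIMs the log2 fold changes were -0.17 (SE 0.10, edgeR adjusted p = 0.172) in primary tumors and -0.31 (SE 0.30, edgeR adjusted p = 0.468) in lymph nodes. With raw library totals S100a4 was called lower in primary tumors (-0.34, edgeR adjusted p = 0.00989).

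S100a6, or calcyclin, a calcium sensor that binds several annexins, ran beside S100a4. Its levels were 965, 863 and 728 CPM in FVB BM IMs, 846, 844 and 854 in DBA2 BM IMs, 623, 807, 814, 701 and 763 in primary tumor TIMs, 785, 675, 712, 411 and 604 in lymph node TIMs and 1017, 986, 1524, 1043 and 1404 in LN4K1 lung TIMs. LN4K1 lung TIMs lay above every other library, and lymph node replicate 4 was the lowest. No comparison with BM IMs passed by edgeR with TMM scaling and all libraries: the log2 fold change was 0.42 (SE 0.16, adjusted p = 0.0944) in LN4K1 lung TIMs, -0.22 (SE 0.12, adjusted p = 0.135) in primary tumor TIMs and -0.42 (SE 0.19, adjusted p = 0.122) in lymph node TIMs. S100a6 was called lower in primary tumor TIMs without FVB BM IM replicate 3 (-0.31, edgeR adjusted p = 0.0446), and with raw library totals it was called lower in primary tumor (-0.39, edgeR adjusted p = 0.00931) and lymph node TIMs (-0.70, edgeR adjusted p = 0.0171). In LN4K1 lung TIMs the unadjusted edgeR p was 0.0305 and the exact permutation p was 0.0714.

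The annexin A2 complex, which binds plasminogen and its activator at the cell surface, was described by Anxa2 and S100a10. Anxa2 ranged from 1571 to 1988 CPM in FVB BM IMs, from 1532 to 1793 in DBA2 BM IMs, from 1631 to 2246 in primary tumor TIMs, from 1506 to 2084 in lymph node TIMs and from 1683 to 2233 in LN4K1 lung TIMs. These ranges overlapped throughout, and its log2 fold changes of -0.08, -0.05 and 0.17 in primary tumor, lymph node and LN4K1 lung TIMs had edgeR adjusted p of 0.621, 0.825 and 0.344. These values depend on scaling, since Anxa2 was called lower in lymph node TIMs with raw library totals. S100a10, the S100 protein that has lost calcium binding and holds annexin A2 in a tetramer, stood at 794, 740 and 604 CPM in FVB BM IMs and at 462, 574, 652, 480 and 538 in primary tumor TIMs, of which 1 library (652) overlapped FVB. It fell in primary tumor TIMs (log2 fold change -0.41, SE 0.13, edgeR adjusted p = 0.0205), with an exact permutation p of 0.0536, and the call was lost without FVB BM IM replicate 1 (-0.31, edgeR adjusted p = 0.112) or 2 (-0.37, edgeR adjusted p = 0.086). In lymph node TIMs it ranged from 413 to 715 CPM (-0.36, SE 0.17, edgeR adjusted p = 0.132), and in LN4K1 lung TIMs from 402 to 856 against 552 to 589 in DBA2 BM IMs (-0.03, SE 0.22, edgeR adjusted p = 0.952). S100a10 was also called lower in lymph node TIMs with raw library totals.

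Anxa1, a glucocorticoid-induced protein that dampens inflammation through formyl peptide receptors, and S100a11, a calcium sensor that binds annexin A1, passed in none of the 3 comparisons by edgeR with each comparison fitted on its own groups. Anxa1 ranged from 1054 to 1431 CPM in FVB BM IMs, 861 to 971 in DBA2 BM IMs, 1054 to 1372 in primary tumor TIMs, 1208 to 1748 in lymph node TIMs and 1043 to 2086 in LN4K1 lung TIMs. Its log2 fold change was 0.55 (SE 0.22, edgeR adjusted p = 0.0987) in LN4K1 lung TIMs, whose libraries all lay above DBA2 BM IMs, and it passed there with all 5 groups in 1 fit (0.62, edgeR adjusted p = 0.0199). It was -0.09 and 0.17 in primary tumor and lymph node TIMs. S100a11 ranged from 391 to 547 CPM in FVB BM IMs, 342 to 392 in DBA2 BM IMs, 471 to 637 in primary tumor TIMs, 325 to 692 in lymph node TIMs and 449 to 646 in LN4K1 lung TIMs. Its log2 fold change was 0.44 (SE 0.15, edgeR adjusted p = 0.0605) in LN4K1 lung TIMs, again without overlap, and DESeq2 called it there (0.45, DESeq2 adjusted p = 0.0233). It was 0.12 and 0.11 in the LN2E1 groups. With raw library totals the sign turned for S100a11 in primary tumor (-0.05) and lymph node TIMs (-0.17) and for Anxa1 in lymph node TIMs (-0.12), as it did for Anxa2 in LN4K1 lung TIMs (-0.05).

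Anxa5, the phosphatidylserine binder used to stain dying cells, stood at 827, 824 and 682 CPM in FVB BM IMs, at 610, 587, 678, 595 and 671 in primary tumor TIMs, at 718, 721, 547, 655 and 713 in lymph node TIMs, at 949, 875 and 866 in DBA2 BM IMs and at 812, 761, 1016, 828 and 830 in LN4K1 lung TIMs. Primary tumor TIMs lay below FVB BM IMs by a narrow gap (678 against 682). Anxa5 fell there (log2 fold change -0.33, SE 0.09, edgeR adjusted p = 0.0117, exact permutation p = 0.0179), and the call was lost without FVB BM IM replicate 1 or 2 (-0.26 each, edgeR adjusted p = 0.0784 and 0.087). In lymph node TIMs its log2 fold change was -0.21 (SE 0.12, edgeR adjusted p = 0.212) and in LN4K1 lung TIMs -0.16 (SE 0.12, edgeR adjusted p = 0.379). Both depend on scaling, since Anxa5 was called lower in each with raw library totals.

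Of the members, 4 had libraries without overlap in the primary tumor comparison (58.1% of all genes tested), 2 in the lymph node comparison (42.9%) and 6 in the LN4K1 lung comparison (34.8%). In LN4K1 lung TIMs these were S100a4, S100a6, S100a11, Anxa1 and Anxa4, all higher, and Anxa3, lower.

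Lymph node and primary tumor TIMs of the LN2E1 model were compared directly. None of the 10 genes changed by edgeR or by DESeq2, against 11.7% of all genes tested by edgeR (6.15% higher, 5.55% lower, 0.0297% DEGs). The libraries of the groups overlapped for all 10, against 14.4% of genes without overlap. Before adjustment, edgeR's quasi-likelihood test put 1 gene, Lgals3, under 0.05 (log2 fold change 0.37, SE 0.16, edgeR adjusted p = 0.168). The log2 fold changes (lymph node over primary tumor) ran from -0.21 (S100a6, SE 0.15) to this value, with SE between 0.09 and 0.24. S100a4 had the largest SE (0.24), and its lymph node libraries spread from 197 to 617 CPM against 400 to 501 in primary tumors.

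The BM IMs of the 2 strains, both without tumor, already differed. Between DBA2 and FVB, 4 of the 10 genes changed (1 higher, 3 lower in DBA2), against 21.1% of all genes tested (11.5% higher, 9.57% lower), and 0 were DEGs, against 0.403%. Anxa3 was higher in DBA2 (log2 fold change 0.52, SE 0.10, edgeR adjusted p = 0.0107), whereas S100a4 (-0.47, SE 0.10, edgeR adjusted p = 0.0127), Lgals3 (-0.56, SE 0.12, edgeR adjusted p = 0.0146) and Anxa1 (-0.48, SE 0.12, edgeR adjusted p = 0.0258) were lower. The libraries of the strains did not overlap for 7 of the 10 genes, against 42.0% of all genes, and the exact permutation p for each was 0.1, the smallest that 3 against 3 allow. The call of S100a4 was lost without FVB replicate 2 (edgeR adjusted p = 0.0505) and that of Anxa3 without DBA2 replicate 2 (edgeR adjusted p = 0.0519). That of Lgals3 was lost without FVB replicate 2 or DBA2 replicate 2 or 3 (edgeR adjusted p of 0.0631 to 0.0658), and that of Anxa1 was kept only without FVB replicate 3. With all 5 groups in 1 fit, 1 call, that of Lgals3, remained. The summed neutrophil markers, 3466 to 4609 CPM in FVB and 1293 to 1821 in DBA2, moved with the strain, and their part was not tested.

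Whether the change in tumors differed between models was tested as an interaction, the change in LN2E1 primary tumor TIMs minus that in LN4K1 lung TIMs. It passed for 3 of the 10 genes, against 26.5% of all genes tested (13.3% below 0), and in each the LN2E1 change was the lower. For S100a4 the difference was -0.88 (SE 0.25, edgeR adjusted p = 0.017), from -0.17 in LN2E1 and 0.73 in LN4K1. For Lgals3 it was -0.81 (SE 0.18, edgeR adjusted p = 0.00451), from -0.85 and -0.02. For S100a6 it was -0.61 (SE 0.20, edgeR adjusted p = 0.034), from -0.22 and 0.42. The differences of S100a4 and Lgals3 passed in all 16 fits with 1 library left out. That of S100a6 passed in 9, and was lost without FVB replicate 1 or 2, any of the 3 DBA2 replicates, LN4K1 lung replicate 5 or primary tumor replicate 1 (-0.61 to -0.56, edgeR adjusted p of 0.055 to 0.089). With all 5 groups in 1 fit only that of Lgals3 passed, S100a4 having an edgeR adjusted p of 0.0676 and S100a6 of 0.0562. For S100a4 and Lgals3 the BM IM level was also higher in FVB than in DBA2, while S100a6 had like levels in both (852 ± 119 and 848 ± 5.13 CPM, SD, n = 3 each). Anxa3 and Anxa4, which moved in both models, had differences of -0.31 (SE 0.18, edgeR adjusted p = 0.227) and -0.22 (SE 0.13, edgeR adjusted p = 0.239).

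**Figure D3:**
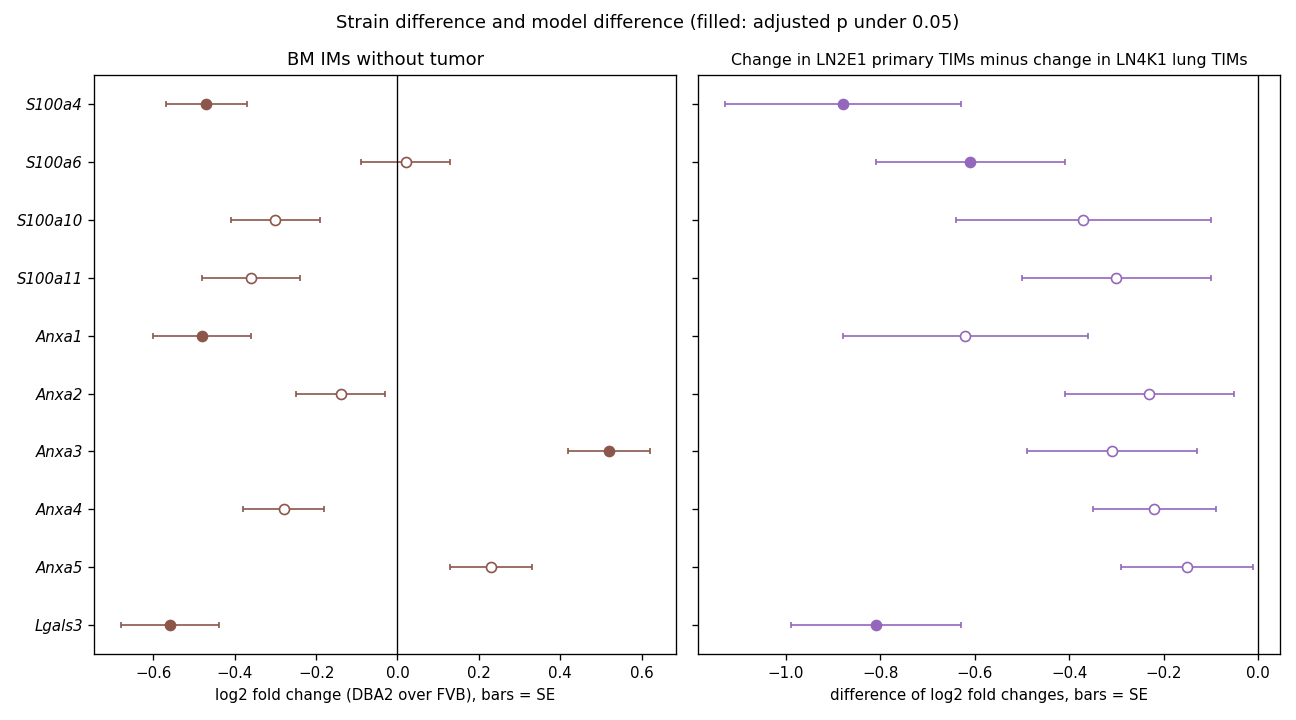
The log2 fold change of DBA2 over FVB BM IMs (left) and the log2 fold change in LN2E1 primary tumor TIMs minus that in LN4K1 lung TIMs (right), with SE as bars and filled points where the adjusted p was under 0.05. On the right S100a4 (-0.88), Lgals3 (-0.81) and S100a6 (-0.61) are filled, and the other genes lie between -0.62 and -0.15.

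Within groups the 10 genes tended to be high or low in the same libraries. Taking each library's deviation from its group mean of log2 CPM, 44 of the 45 pairs of members had a positive Pearson's r over the 21 libraries, with a median of 0.67. This describes libraries that share their preparation and scaling, and no test was made. FVB BM IM replicate 3 was the lowest of its group for all 10 genes. LN4K1 lung TIM replicate 3, which stood apart over all genes, was the highest of its group for S100a6, S100a10, S100a11, Anxa1, Anxa2, Anxa4 and Anxa5. Shifts of whole libraries such as these enter every r, and r was not recomputed without them. The same r was not computed for pairs of other genes, so whether these values are particular to the members is not known. The pairs S100a4 with S100a6 (0.89), S100a6 with S100a10 (0.88) and Anxa2 with Lgals3 (0.87) were the highest, and the lowest was S100a4 with Anxa4 (-0.08). Among the 4 S100 genes r lay between 0.68 and 0.89, and among Anxa2, Anxa4, Anxa5 and Lgals3 between 0.72 and 0.87. Known binding partners were not the closest pairs: r was 0.78 for Anxa2 with S100a10 and 0.67 for Anxa1 with S100a11.

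**Figure D4:**
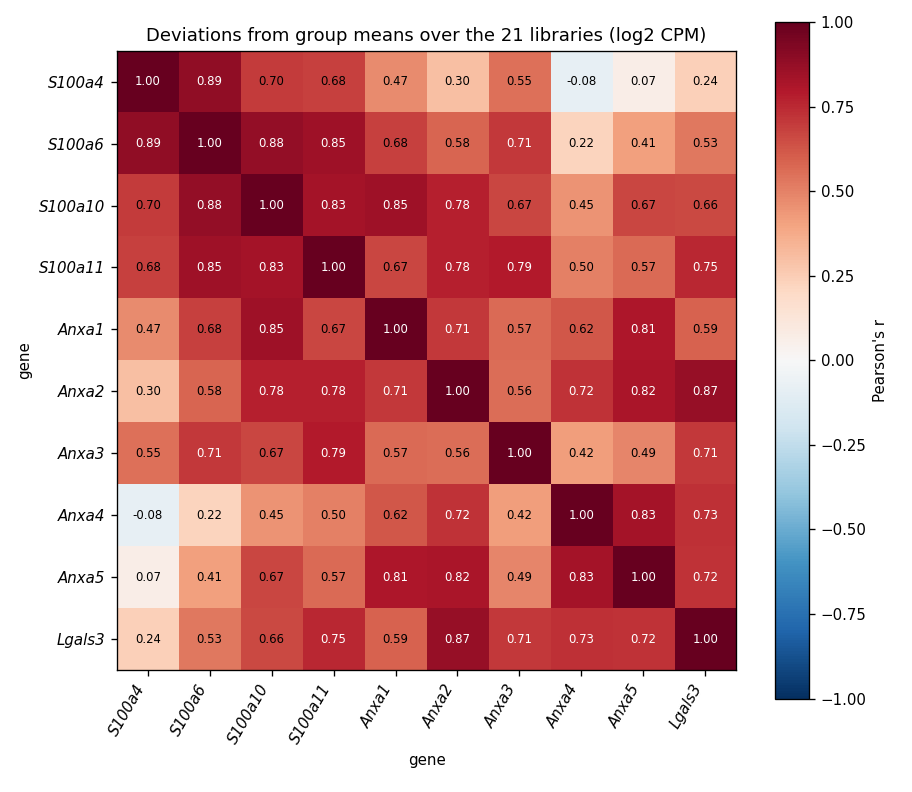
Pearson's r between the 10 genes of deviations from group means (log2 CPM, 21 libraries), from -1 (blue) to 1 (red). The 4 S100 genes lie between 0.68 and 0.89 with each other, and Anxa4 and Anxa5 have low values with S100a4 (-0.08 and 0.07).

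The genes with the level pattern most like that of a member were sought among 8015 others with a mean log2 CPM above 3, by Pearson's r of log2 CPM over the 21 libraries, which includes the differences between groups. For Anxa3 they were Snx30 (0.97), Prtn3 (0.96), the proteinase 3 gene of immature granulocytes, and Rnaseh2c (0.96). For Anxa4 they were Snap23 (0.96), Ms4a4c (0.95) and Rab5a (0.94). For S100a6 the ribosomal protein gene Rps18 (0.93) was among the first 3, and for S100a10 Rps29 (0.89). For Lgals3 they were Adrm1 (0.89), Fam104a (0.88) and Psmd4 (0.88), the first and last of which encode proteasome subunits. S100a4 was most like Ssr4 (0.91), Anxa1 most like Pdcd6 (0.94), Anxa2 most like Cops8 (0.91), Anxa5 most like Tmem223 (0.93) and S100a11 most like Sra1 (0.85).

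Other genes of these families were counted in the same comparisons. Among 12 other S100 genes, of which 10, 7 and 10 were tested, 3 were higher and 4 lower in primary tumor TIMs, 0 higher and 3 lower in lymph node TIMs, and 2 higher and 1 lower in LN4K1 lung TIMs, by edgeR at an adjusted p under 0.05. Over all genes tested, 61.9%, 37.4% and 24.9% were called in these comparisons. The median log2 fold change of this list was 0.54, -2.42 and 0.09, against 0.08, -0.04 and 0.03 over all genes tested. S100a9, a subunit of calprotectin and a neutrophil marker, averaged 708 ± 135 CPM in FVB BM IMs, 98.3 ± 129 in primary tumor TIMs and 8.63 ± 6.4 in lymph node TIMs, and 238 ± 45.2 in DBA2 BM IMs against 69.7 ± 48.0 in LN4K1 lung TIMs. It fell in all 3, with log2 fold changes of -2.87, -6.36 and -1.86 (edgeR adjusted p of 0.0104, 3.31e-05 and 0.0142). S100a8, the other calprotectin subunit, fell in the LN2E1 groups (-2.43 and -3.36, edgeR adjusted p = 0.00335 and 0.000169), and its log2 fold change was -0.22 in LN4K1 lung TIMs (edgeR adjusted p = 0.692). S100a13, which takes part in the release of proteins that lack a signal peptide, fell in primary tumor TIMs (-0.80, edgeR adjusted p = 0.000307). Libraries of primary tumor TIMs ran from 31.7 to 328 CPM for S100a9.

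Among 7 other annexins, of which 5, 4 and 6 were tested, 2, 1 and 1 were higher and 0 lower in each comparison by edgeR (medians of 0.52, 0.69 and 0.22). The calcium-dependent membrane binder Anxa11 rose in primary tumor TIMs (8.19 ± 5.05 to 35.3 ± 8.41 CPM, log2 fold change 2.07, SE 0.38, edgeR adjusted p = 0.00111) and in lymph node TIMs (1.82, SE 0.48, edgeR adjusted p = 0.0134). In LN4K1 lung TIMs it was -0.19 (SE 0.34, edgeR adjusted p = 0.736), and the difference between models passed (2.28, SE 0.52, edgeR adjusted p = 0.00588). Anxa6 and Anxa7 did not pass in any of the 3 comparisons, their log2 fold changes lying between -0.12 and 0.27. Among 7 other galectins, of which 5, 4 and 5 were tested, 3, 2 and 2 were higher and 1 lower in each (medians of 0.71, 0.18 and 0.19). The shares and medians over all genes tested are those given above, and the gaps amount to few genes and were not tested. Lgals8, whose product binds damaged vesicles, was a DEG in all 3 (1.68, 1.83 and 1.22, edgeR adjusted p of 1.19e-06, 3.12e-05 and 6.04e-05), rising from 70.5 ± 7.61 to 230 ± 15.5 CPM in primary tumor TIMs. Lgals1, another galectin abundant in leukocytes, fell in all 3 (-0.56, -0.78 and -1.02, edgeR adjusted p of 0.00506, 0.00941 and 0.00124). Lgals9 rose in primary tumor (0.71, edgeR adjusted p = 0.000904) and lymph node TIMs (1.04, edgeR adjusted p = 0.00094).

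The partners and receptors of these proteins were covered by 19 genes: Ahnak, Myh9, Pla2g4a, Fpr1, Fpr2, Ager, Tlr4, Plaur, Plau, Plat, Dysf, Pdcd6, Pdcd6ip, Lgals3bp, Lamp1, Lamp2, Slc3a2, Mgat5 and Trim16. Of these, 13 were higher and 1 lower in primary tumor TIMs, 10 higher and 3 lower of 18 tested in lymph node TIMs, and 6 higher and 1 lower of 19 in LN4K1 lung TIMs, by edgeR. Ager is also 1 of the 4 lung epithelium markers, all of which were higher in primary tumor TIMs. Genes called made up 61.9%, 37.4% and 24.9% of all genes tested in these comparisons, and genes called higher 33.3%, 20.2% and 13.9%. The median log2 fold change was 0.98, 0.72 and 0.51, against 0.08, -0.04 and 0.03 over all genes tested. Plaur, the receptor of urokinase, which acts beside annexin A2 in plasmin generation, stood at 531 ± 68.6 CPM in FVB BM IMs, 1058 ± 190 in primary tumor TIMs and 1892 ± 374 in lymph node TIMs, and at 530 ± 51.7 in DBA2 BM IMs against 1082 ± 281 in LN4K1 lung TIMs. It rose in all 3 (0.98, 1.83 and 0.95, edgeR adjusted p of 0.000456, 4.8e-05 and 0.00851), and was higher in lymph node than in primary tumor TIMs (0.85, SE 0.16, edgeR adjusted p = 0.00618). Lamp2, a lysosomal membrane glycoprotein that galectin-3 binds, rose in all 3 (1.10, 1.47 and 0.70, edgeR adjusted p of 7.16e-06, 2.59e-05 and 0.00191). Lamp1, its relative, fell in lymph node TIMs (-0.81, SE 0.23, edgeR adjusted p = 0.0211) and was at -0.74 (SE 0.47, adjusted p = 0.202) and 1.26 (SE 0.49, adjusted p = 0.0888) in the other comparisons.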

How the data were processed

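RNA of sorted IMs was sequenced after low-input SMART amplification and Nextera XT tagging, which keep no strand. Per the study's methods and the labels, the authors trimmed adapters with BBDuk, aligned reads to mm10 (GRCm38) with BBMap, sorted alignments with SAMtools 1.8, counted them per gene with featureCounts 1.5.2 and deposited raw counts, the unit used here. The annotation and counting settings are not given in the sources used here. Libraries were grouped by their labels. Genes with low counts were removed (filterByExpr, minimum count 10, minimum total 15), and each comparison was fitted over all remaining genes of its own groups with edgeR 4.0.16 (TMM, robust quasi-likelihood test, Benjamini-Hochberg adjustment; R 4.3.3). The code was run on simulated counts for the comparisons other than the interaction. These gave every gene the same dispersion, so they do not show how the test performs at the spread of these libraries. CPM and RPKM (union of GENCODE vM21 exons) were computed here from the deposited counts, with 2 as the prior count of log2 CPM. Permutation tests were exact and two-sided (scipy 1.17.1). No pair of libraries was identical. Between libraries of 2 groups with the same replicate number, correlations of deviations from group means ran from -0.30 to 0.30. Such values cannot show whether equal numbers mark the same mouse or batch, and the labels do not say. The main tests treat all samples as unpaired. The members and gene lists were chosen with earlier results of these data known, and other genes named were the 3 with the highest mean CPM of each list and the 3 with the highest r to each member. Alternatives were other scaling, filters, a fit of all 5 groups, a replicate block, DESeq2 1.42.0 and leaving out each library. Raw library totals were added after seeing the data. Precision is limited by 3 to 5 libraries a group and not by depth, the lowest library total being 80772922 counts.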

Additional observations from a re-analysis of the deposited data

Results flagged for a closer look

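In groups of 5 libraries, 1 library lay far from the other 4 in 3 of the 30 combinations of gene and group, by Dixon's criterion (gap to the nearest library over the group's range above 0.71), which chance meets in about 1 in 20. Primary tumor TIM replicate 3 was high for Anxa2, at 2246 CPM (ratio 0.935), and for Lgals3, at 1993 CPM (0.807). LN4K1 lung TIM replicate 3, which also stood apart over all genes, was high for Anxa5, at 1016 CPM (0.73). The change in LN2E1 primary tumor TIMs differed from that in LN4K1 lung TIMs, by the interaction in edgeR, for S100a4 (-0.88 on the log2 scale), S100a6 (-0.61) and Lgals3 (-0.81), and what sets the models apart was not tested.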

How the results depend on the processing

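Of the log2 fold changes recomputed under the alternatives, 924 kept their direction and their side of the threshold, 42 lost it, 25 newly passed it and 39 changed sign, 0 of these 39 belonging to a change that had been called. With raw library totals the signs that turned were S100a11 (-0.05 in primary tumors, -0.17 in lymph nodes), Anxa1 in lymph nodes (-0.12), Anxa2 in LN4K1 lungs (-0.05) and, for lymph node over primary tumor, S100a10 (-0.05), Anxa2 (-0.08) and Anxa5 (-0.001). With all 5 groups in 1 fit they were S100a10 (0.04) and Lgals3 (0.05) in LN4K1 lungs and S100a6 between strains (-0.01). Anxa2 between lymph node and primary tumor also turned with DESeq2 size factors (-0.003), with at least 10 counts in every library (-0.02) and with DESeq2, unshrunken or shrunken (-0.002). With 1 library left out, signs turned within the ranges -0.20 to 0.02 (Anxa1, primary tumor), -0.02 to 0.24 and -0.15 to 0.01 (S100a11 and Anxa2, lymph node), -0.19 to 0.10 and -0.07 to 0.02 (S100a10 and Lgals3, LN4K1 lung), -0.36 to 0.03, -0.06 to 0.14, -0.15 to 0.10 and -0.03 to 0.13 (S100a4, S100a10, S100a11 and Anxa2, lymph node over primary tumor) and -0.07 to 0.11 (S100a6, strains). With the replicate block, 2 members changed in primary tumors (0 DEGs) and 1 in LN4K1 lungs, while the share of all genes called fell to 40.9% and 9.72%. Anxa4 was among the calls lost, in primary tumors (0.40, edgeR adjusted p = 0.077) and in LN4K1 lungs (0.61, edgeR adjusted p = 0.0858). Whether equal numbers pair samples is not known. Every numbered library correlated best with its own number only for lymph node TIMs against FVB BM IMs. Raw library totals gave 2 DEGs in primary tumors and 6 changed members in lymph nodes. Lymph node TIMs had 1 DEG with at least 10 counts in every library, with all 5 groups in 1 fit and with DESeq2, and LN4K1 lung TIMs had 1 with DESeq2. With all 5 groups in 1 fit, 1 member differed between strains and 1 between models. With 1 library left out, the members changed ranged from 3 to 6 in primary tumors (3 without FVB replicate 1 or 2; 1 DEG throughout), 1 to 4 in lymph nodes (1 without FVB replicate 3, 4 without lymph node replicate 1; 0 to 1 DEGs), 2 to 6 in LN4K1 lungs (6 without replicate 3), 0 to 1 between lymph node and primary tumor (Anxa4, without lymph node replicate 3), 1 to 7 between strains (1 without FVB or DBA2 replicate 2, 7 without FVB replicate 3) and 2 to 4 between models. The causes were not tested.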
